A study of Rattus norvegicus with 48 samples.

Results

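The change in lung messenger RNA between day 1 and day 7 after the end of exposure was examined in rats that had inhaled fracking sand dust together with diesel exhaust particles. The 16 libraries were chosen by their labels, as the 8 exposed rats of day 7 and the 8 exposed rats of day 1, out of 48 libraries in the series. All rats were male Sprague-Dawley animals, an outbred laboratory strain, kept in pairs under a light and dark cycle. Exposed rats breathed the dust at 30 mg per cubic metre and the diesel particles at 1.0 mg per cubic metre by whole-body inhalation for 6 hours a day on 4 days, and air controls breathed filtered air on the same schedule. Dust and diesel were always given together, so an effect of either agent cannot be told apart from that of the other. The same interval in the air rats, again 8 libraries against 8, was set beside each exposed change, and the groups of day 27 (8 exposed and 8 air) were used for levels only. Each library is named by the animal number of its label, FSDE_257 to FSDE_264 for exposed day 1 and FSDE_273 to FSDE_280 for exposed day 7.

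The interval between both days covers the early clearance of inhaled particles, when an acute response to dust in the rat lung usually wanes. Inhaled particles are taken up by alveolar macrophages, and epithelial and endothelial cells answer with chemokines, secreted defence proteins such as lipocalin 2 (Lcn2), antioxidant enzymes under the factor NRF2 and, where aromatic hydrocarbons are present, the aryl hydrocarbon receptor target Cyp1a1. Lung cells also hold a circadian clock, a feedback loop in which CLOCK and BMAL1 (Arntl) switch on the Per, Cry, Nr1d and Dbp genes. The Per, Cry and Nr1d products hold the loop back, so that all these transcripts rise and fall with the time of day.

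The 16 exposed libraries held 10226230 to 13572215 counts. Mean totals differed by -5.98% between day 7 and day 1 in exposed rats (exact two-sided permutation test, p = 0.104, adjusted p = 0.209 over 2 comparisons). Libraries FSDE_257 and FSDE_260 of day 1 differed little more than counting noise allows (a ratio of 1.44 between their squared differences and those expected from counting), as did libraries FSDE_275 and FSDE_278 of day 7 (1.51). The other 54 pairs within the exposed groups had ratios of 2.62 to 7.70. Each of these pairs was kept as separate rats, and results were recomputed with each pair summed to a single sample, together with an air day 7 pair of ratio 1.57. Counts of each day stand in their own deposited table, no batch or hour of tissue collection is given in the sources used here, and rats of day 7 were older, so day, age, hour and any batch cannot be told apart. The defining markers of lung were present in both groups: Sftpc, the surfactant protein of alveolar type 2 cells, lay between 6471 and 9930 CPM (counts scaled to the total of each library after TMM normalization) over the 16 libraries.

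Between day 1 and day 7, 614 of 14687 genes tested changed in exposed lungs, with 307 higher and 307 lower (edgeR quasi-likelihood test, Benjamini-Hochberg adjusted p under 0.05). These calls were 4.18% of the genes tested, 2.09% in each direction. Changes were small: the median size among called genes was 0.23 on the log2 scale, and 42 genes passed 1.5-fold, 18 of them higher and 24 lower. The 8 libraries of day 7 did not overlap the 8 of day 1 for 59 of the 614 called genes (4.18% of genes tested were called) and for 63 of all 14687. With the 3 close pairs summed, 219 genes were called (107 higher and 112 lower), all of them among the 614. Leaving out a single exposed library gave between 184 calls (without day 1 library FSDE_264) and 1010 (without day 7 library FSDE_277).

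The same interval changed 1689 genes in air lungs (11.5% of those tested), 1072 higher (7.3%) and 617 lower (4.2%). Both intervals called 221 genes, which are 36.0% of the exposed list and 13.1% of the air list, and 220 of them moved the same way. Of the 614 genes called in exposed lungs, 573 (93.3%) had a change of the same sign in air lungs, against 69.2% of all genes tested, and 41 had the opposite sign. The change was larger in exposed than in air lungs for 514 of the 614, a direction that choosing genes on the exposed change favours. The difference between the exposed and the air change passed the test for 0 genes (0% of those tested) by edgeR, with 1210 genes at an unadjusted p under 0.05, while DESeq2 called 14 and limma-voom 0.

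**Figure D1:**
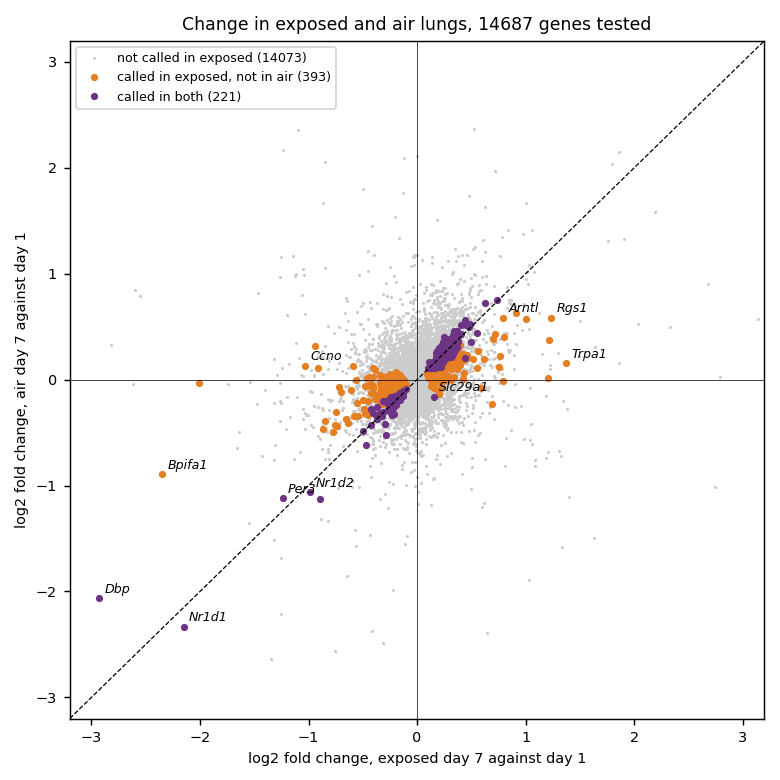
Each point is a gene, with its log2 fold change from day 1 to day 7 in exposed lungs on the horizontal axis and in air lungs on the vertical axis; the dashed line marks equal change and 15 genes lie outside the axes. Of the 221 genes called in both, 220 moved the same way and Slc29a1 did not, and Trpa1 and Ccno are among the 393 called in exposed lungs and not in air.

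Genes of the circadian clock gave several of the largest fold changes in exposed lungs. Of the 19 genes of that list, all tested, 2 rose (Arntl and Clock) and 6 fell (Per3, Cry2, Nr1d1, Nr1d2, Dbp and Tef), and 11 did not pass. Among all genes tested, 2.09% were higher and 2.09% lower in exposed lungs. The median log2 fold change over the list was -0.24, against -0.01 over all genes tested. In air lungs, where 7.3% of all genes were higher and 4.2% lower, 3 clock genes rose and 5 fell. Of the 8 genes called in exposed lungs, 6 were also called in air lungs, in the same direction. Some of these genes answer to short sequence elements in their promoters, and the 250 bases before the annotated start are shown for the called members that held an exact match. The E-box, CACGTG, is the element bound by CLOCK with BMAL1, and TAGGTCA is the core of the element bound by ROR activators and by the REV-ERB repressors that Nr1d1 and Nr1d2 encode. The sequences are from RefSeq (GRCr8), read 5′ to 3′ on the gene's strand, with the match in capitals.
Nr1d1, chr10:84229455-84229704, minus strand: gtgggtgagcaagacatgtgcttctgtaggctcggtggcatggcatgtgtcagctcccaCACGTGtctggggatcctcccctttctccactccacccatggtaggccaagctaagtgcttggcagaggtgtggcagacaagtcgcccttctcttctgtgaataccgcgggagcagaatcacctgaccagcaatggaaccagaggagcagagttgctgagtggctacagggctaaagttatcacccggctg
Tef, chr7:115206577-115206826, plus strand: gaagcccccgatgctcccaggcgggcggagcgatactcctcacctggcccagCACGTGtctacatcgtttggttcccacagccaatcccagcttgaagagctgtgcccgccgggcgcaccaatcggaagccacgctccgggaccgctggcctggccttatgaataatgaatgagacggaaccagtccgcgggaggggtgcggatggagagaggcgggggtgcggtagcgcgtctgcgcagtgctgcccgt
Arntl (Bmal1 in RefSeq), chr1:176766078-176766327, plus strand: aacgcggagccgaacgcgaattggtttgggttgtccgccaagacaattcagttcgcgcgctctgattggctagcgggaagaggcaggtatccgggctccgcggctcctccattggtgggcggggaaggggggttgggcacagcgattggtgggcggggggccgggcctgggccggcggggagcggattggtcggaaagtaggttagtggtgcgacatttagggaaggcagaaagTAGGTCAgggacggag
The E-box begins 191 bases before the start in Nr1d1 and 198 bases before it in Tef, and TAGGTCA begins 16 bases before the start in Arntl. Windows were found for 16 of the 19 clock genes, 18 windows in all. Of these genes, 5 held an E-box on either strand in at least 1 window (Bhlhe40, Bhlhe41, Ciart, Nr1d1 and Tef). An E-box was found in 5.59% of all 33469 windows of the same length, a share counted by window and not by gene. TAGGTCA was found in Arntl alone, against 2.26% of all windows, and a D-box, TTATGTAA, in Per2 alone, against 0.828%. None of these motifs overlapped another in the windows printed. A further Nr1d1 window, upstream of another start, held none of the motifs, and neither did the windows of Dbp, Per3, Cry2, Nr1d2 and Clock. A match is a description of the letters in these windows and was not tested as a binding site.

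Dbp, an output transcription factor of the clock, had the largest fall among the clock genes. At day 1 the exposed libraries FSDE_257 to FSDE_264 stood at 6.74, 14.8, 61.7, 7.19, 57.6, 104, 77.5 and 118 CPM of Dbp. At day 7, libraries FSDE_273 to FSDE_280 stood at 6.83, 5.35, 5.27, 5.602, 6.06, 4.20, 8.44 and 17.3 CPM. The day 1 group was therefore split, with 5 libraries from 57.6 CPM upward and 3 (FSDE_257, FSDE_258 and FSDE_260) at 14.8 CPM or lower, and the latter reached into the range of day 7. Dbp fell by 2.93 ± 0.53 on the log2 scale (SE, n = 8 and 8, edgeR adjusted p = 0.0050), and by limma-voom its adjusted p was 0.0682. All 8 libraries of day 7 lay below the day 1 mean, but the rule for naming the largest falls required at least 7. In air lungs Dbp fell by 2.06 ± 0.54 (edgeR adjusted p = 0.015), from 7.23 to 59.9 CPM at day 1 to 4.73 to 8.43 CPM at day 7. At day 27 it lay at 6.18 to 10.7 CPM in exposed and 7.03 to 10.3 CPM in air lungs, near the levels of day 7.

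Nr1d1, which encodes the repressor REV-ERB alpha, showed the same split. Libraries FSDE_257, FSDE_258 and FSDE_260 held 47.4, 76.5 and 50.8 CPM of Nr1d1, and the other 5 libraries of day 1 held 156 to 228 CPM. At day 7 the lowest, median and highest values were 9.41, 17.8 and 87.9 CPM, the highest in library FSDE_280, so the groups overlapped. Nr1d1 fell by 2.15 ± 0.52 on the log2 scale in exposed lungs (edgeR adjusted p = 0.0208) and by 2.33 ± 0.54 in air lungs (edgeR adjusted p = 0.00765). Its paralogue Nr1d2 fell by 0.98 ± 0.28 (edgeR adjusted p = 0.0425), from a median of 184 to 67.6 CPM, and had a change of -1.065 ± 0.28 in air lungs (edgeR adjusted p = 0.0157). The Nr1d2 call in exposed lungs was lost with the close pairs summed (edgeR adjusted p = 0.0633).

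Among the period and cryptochrome genes, Per3 fell by 1.24 ± 0.28 (edgeR adjusted p = 0.0172), from a median of 61.9 CPM (range 18.9 to 69.5) to 18.5 CPM (11.8 to 40.2). Cry2 fell by 0.34 ± 0.08 (edgeR adjusted p = 0.0188), from a median of 55.8 to 40.7 CPM. Both repressor genes also fell in air lungs, Per3 by 1.12 ± 0.29 (edgeR adjusted p = 0.0138) and Cry2 by 0.31 ± 0.08 (edgeR adjusted p = 0.0123). Per2 had a log2 fold change of -0.84 ± 0.25 in exposed lungs and narrowly missed the threshold (edgeR adjusted p = 0.0513), and Per1 had one of 0.41 ± 0.43 (edgeR adjusted p = 0.602). Cry1 had a change of 0.45 ± 0.14 (edgeR adjusted p = 0.0525) and passed in air lungs at 0.54 ± 0.14 (edgeR adjusted p = 0.0106). Tef, like Dbp a D-box binding factor, fell by 0.65 ± 0.16 (edgeR adjusted p = 0.0228), from a median of 173 to 96.4 CPM, while its air change of -0.37 ± 0.16 did not pass (edgeR adjusted p = 0.128).

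The activators of the loop moved the other way. Arntl ranged from 13.9 CPM in library FSDE_264 to 57.8 CPM in library FSDE_257 at day 1, with libraries FSDE_257, FSDE_258 and FSDE_260 at 43.3 CPM or higher and the other 5 at 25.8 CPM or lower. At day 7 it ranged from 39.0 CPM in library FSDE_280 to 63.1 CPM in library FSDE_273. The libraries of day 1 that were low in Dbp were thus the ones high in Arntl, and library FSDE_280, lowest in Arntl at day 7, was the highest of that day in Dbp, Nr1d1, Nr1d2, Per3 and Tef. Arntl rose by 0.79 ± 0.22 on the log2 scale (edgeR adjusted p = 0.0421), and its air change of 0.59 ± 0.22 did not pass (edgeR adjusted p = 0.0816). Clock, its partner, rose by 0.32 ± 0.06 (edgeR adjusted p = 0.0050), from a median of 121 CPM (102 to 142) to 153 CPM (140 to 168), and by 0.21 ± 0.06 in air lungs (edgeR adjusted p = 0.0174). The difference between the exposed and air change was not called for any of the 19 genes.

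**Figure D2:**
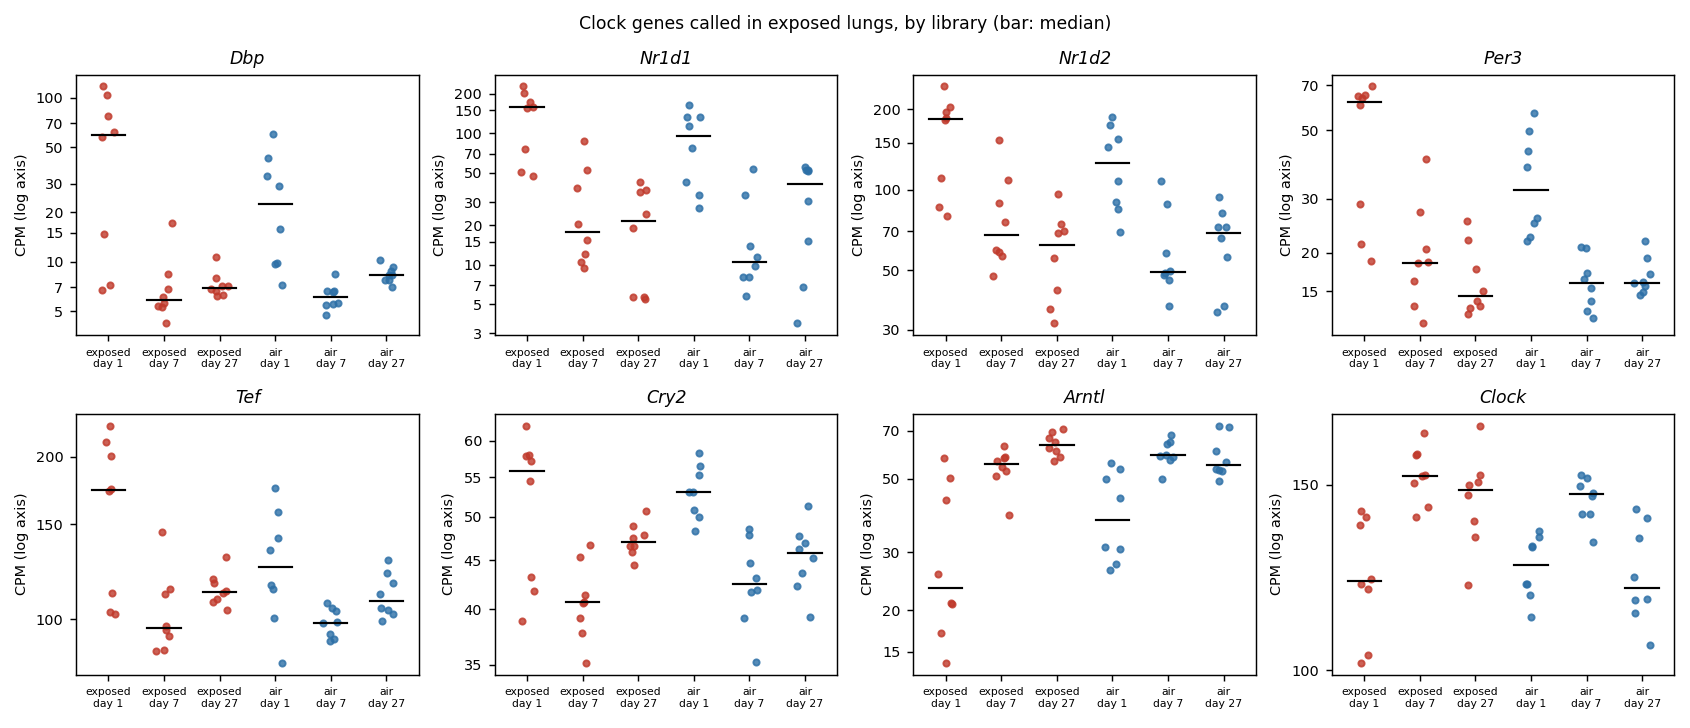
CPM on a log axis of the 8 clock genes called in exposed lungs, a point for each library and a bar at the median of each group of 8. Exposed day 1 splits into high and low libraries for Dbp and Arntl, and air day 1 covers a narrower range (7.23 to 59.9 CPM of Dbp against 6.74 to 118), while day 7 and day 27 levels of Dbp lie low in both arms.

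The count of called clock genes moved with single libraries of both days. It was 8 in all, 7 with the close pairs summed, 4 without library FSDE_262 and without FSDE_264, 4 when only the exposed libraries were fitted, and 12 without library FSDE_257. Without a library of day 7 it lay between 6 and 10, the latter without FSDE_280. Dbp and Per3 passed without any single library, Nr1d1 was lost only without library FSDE_264 and Cry2 only without library FSDE_262, and Tef was lost without either of these. The Arntl call was lost without each of 11 libraries in turn, and the Nr1d2 call without each of 10. With only the exposed libraries in the fit, Arntl, Cry2, Nr1d2, Per3 and Tef did not pass.

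The 12 largest called rises in exposed lungs, Arntl among them, ran from 0.69 to 1.37 on the log2 scale and the 12 largest falls, among them Dbp, Nr1d1, Per3 and Nr1d2, from -0.75 downward. Trpa1, an irritant-gated ion channel of sensory nerves, had the largest rise. Its day 1 libraries FSDE_257 to FSDE_264 held 1.18, 1.48, 0.87, 0.93, 0.66, 0.66, 2.28 and 0.33 CPM of Trpa1. Libraries FSDE_273 to FSDE_280 of day 7 held 2.89, 2.33, 3.22, 3.29, 2.33, 2.43, 2.73 and 2.69 CPM. Every library of day 7 was above every library of day 1, at levels of a few CPM. Trpa1 rose by 1.37 ± 0.26 (edgeR adjusted p = 0.00519) and had a change of 0.16 ± 0.26 in air lungs (edgeR adjusted p = 0.741), where it lay at a median of 1.70 CPM at day 1 and 1.89 CPM at day 7. The difference between the arms, 1.22 ± 0.37, did not pass (edgeR adjusted p = 0.368).

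Rgs1, a regulator of G protein signalling in lymphocytes, rose by 1.23 ± 0.28 (edgeR adjusted p = 0.0167), from a median of 8.85 CPM (6.11 to 10.8) to 15.1 CPM (9.14 to 37.0), and the groups overlapped. Zbtb16, a transcription factor induced by glucocorticoids, rose by 0.77 ± 0.18 (edgeR adjusted p = 0.0194), from a median of 5.48 CPM (4.97 to 8.37) to 10.1 CPM (6.99 to 16.8). Its highest exposed library at day 27 reached 91.4 CPM, and with all 48 libraries in the fit the Zbtb16 call was lost (edgeR adjusted p = 0.228). Zbtb16 was the only one of 17 tested glucocorticoid response genes to pass (5.88%), near the 4.18% called over all genes. The list's median log2 fold change was 0.29 in exposed and -0.02 in air lungs.

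Adra2b, an alpha-2 adrenergic receptor, rose by 0.69 ± 0.17 (edgeR adjusted p = 0.0188), from a median of 3.67 CPM (2.61 to 4.79) to 5.89 CPM (3.82 to 8.25). In air lungs Adra2b moved by -0.23 ± 0.16 (edgeR adjusted p = 0.371), from a median of 5.69 to 4.37 CPM. In exposed rats the groups of Adra2b overlapped. All 8 libraries of day 7 lay above the day 1 mean, but the rule for naming the largest rises required at least 7. The remaining 7 rises were Wnt2b, a Wnt ligand of lung mesenchyme (1.00 ± 0.28, edgeR adjusted p = 0.0371), Dhrs9, a retinol dehydrogenase (0.91 ± 0.26), Adamts4, a proteoglycan-cleaving protease (0.80 ± 0.22), Scube3 (0.75 ± 0.22), Plxna4a (0.73 ± 0.21), Fam124b (0.72 ± 0.21) and Sema3d, a secreted guidance ligand (0.70 ± 0.21, edgeR adjusted p = 0.0475). In air lungs Plxna4a rose by 0.75 ± 0.22 (edgeR adjusted p = 0.0215), and the other 6 did not pass. With the close pairs summed, 4 of the 12 largest rises passed: Trpa1, Rgs1, Arntl and Zbtb16.

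Ighg, an immunoglobulin gamma constant gene, was at 2.97 to 19.0 CPM in the 8 exposed libraries of day 1 and at 0 counts in all 8 of day 7. Pooled over the group, 980 counts at day 1 against a floor set at 3 counts for day 7 make its level at least 307-fold lower. This floor allows for counting alone and not for the spread between rats. Zeros were also seen elsewhere: Ighg was at 0 in 1 of 8 air libraries at day 1, 7 of 8 at day 7, 5 of 8 exposed libraries at day 27 and 4 of 8 air libraries at day 27. Constant genes of immunoglobulins are near-identical copies between which estimated counts can be split, so this value is uncertain. None of the 12 tested genes of the B and plasma cell list passed in exposed lungs (4.18% of all genes did), with a median log2 fold change of -0.09.

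Bpifa1, a secreted antimicrobial protein of airway epithelium, fell by 2.35 ± 0.65 (edgeR adjusted p = 0.0384). It ranged from 0.47 to 7.07 CPM at day 1 (median 4.13) and from 0 to 2.09 CPM at day 7 (median 0.555), and the groups overlapped. In air lungs its change was -0.89 ± 0.63 (edgeR adjusted p = 0.38), and the exposed call of Bpifa1 was lost with the close pairs summed (edgeR adjusted p = 0.0986). Ccno, a cyclin-like gene needed for making motile cilia, fell by 1.04 ± 0.22 (edgeR adjusted p = 0.0102), from a median of 3.57 CPM (2.28 to 5.47) to 1.80 CPM (0.58 to 2.602). Only library FSDE_262 of day 1 lay within the range of day 7. In air lungs Ccno had a change of 0.13 ± 0.22 (edgeR adjusted p = 0.74), and the difference between the arms of -1.17 ± 0.31 did not pass (edgeR adjusted p = 0.319). The 10 tested genes of the ciliated cell list did not pass in exposed lungs (median 0.11), where 4.18% of all genes did.

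The other falls among the largest 12 were Nsun4, a mitochondrial RNA methyltransferase listed under 2 identifiers (-0.94 ± 0.26, edgeR adjusted p = 0.0354), Rasd2, a Ras-like small GTPase (-0.85 ± 0.21), Tmem238 (-0.78 ± 0.22), Colec10, a secreted collectin (-0.76 ± 0.21), and Bloc1s3, a subunit of a complex for lysosome-related organelles (-0.75 ± 0.19). The Nsun4 value in air lungs was 0.32 ± 0.25, of opposite sign, and none of the 5 passed there. With the close pairs summed, 7 of the 12 largest falls passed: Ighg, Dbp, Nr1d1, Per3, Ccno, Nsun4 and Rasd2.

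**Figure D3:**
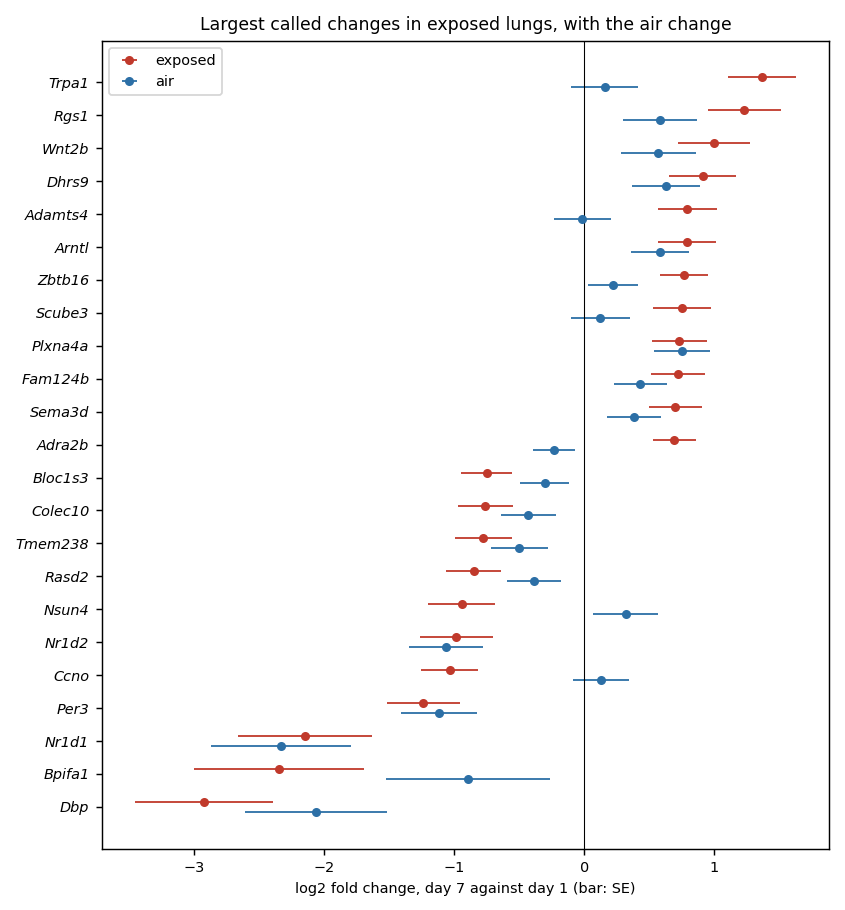
Log2 fold change with its SE from day 1 to day 7 in exposed (red) and air (blue) lungs for 23 of the 24 largest called changes, leaving out Ighg, which was at 0 in every exposed library of day 7. The 5 clock genes drawn had changes of the same sign in both arms, and Trpa1, Adamts4, Scube3, Adra2b, Ccno and Nsun4 lay near 0 or on its other side in air lungs.

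None of the 10 genes followed for the response to particles passed in exposed lungs, where 4.18% of all genes did. Lcn2 ranged from 86.4 to 403 CPM at day 1 (median 166) and from 44.5 to 255.1 CPM at day 7 (median 116), and its change of -0.66 ± 0.32 missed the threshold (edgeR adjusted p = 0.229). Air lungs held medians of 77.3 and 92.2 CPM of Lcn2 on these days. The exposed groups overlapped over most of their range. Cyp1a1 ranged from 4.56 to 13.9 CPM at day 1 (median 10.3) and from 4.27 to 37.9 CPM at day 7 (median 18.1), a change of 0.98 ± 0.32 (edgeR adjusted p = 0.0725), against -0.56 ± 0.31 in air lungs (edgeR adjusted p = 0.246). Nqo1, an NRF2 target, had a change of -0.16 ± 0.05 (edgeR adjusted p = 0.0675). Of 43 alternative settings, Cyp1a1 passed in 2 and Nqo1 in 4. None of the 5 tested aryl hydrocarbon receptor targets passed in exposed lungs (median 0.16, against 0.01 in air lungs). By DESeq2, 3 of these targets passed, where 7.00% of all genes did. The chemokines Cxcl1 (-0.07 ± 0.20) and Ccl2 (-0.34 ± 0.19), haem oxygenase Hmox1 (-0.12 ± 0.11), the macrophage protease Mmp12 (-0.11 ± 0.21), osteopontin Spp1 (-0.15 ± 0.37), Col1a1 (-0.15 ± 0.10) and Timp1 (0.07 ± 0.07) did not pass either, the lowest edgeR adjusted p among them being 0.294 for Ccl2. Cxcl17, a mucosal chemokine, fell by 0.33 ± 0.07 (edgeR adjusted p = 0.00737), from a median of 118 CPM (104 to 131) to 93.7 CPM (79.0 to 112), with an air change of -0.02 ± 0.07. It was the only one of 23 tested chemokines to pass (4.35%), near the 4.18% called over all genes.

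In an earlier analysis of these data, 4 genes were named as lower in exposed than in air lungs at day 1: Dll4, Slc29a1, Ehd4 and Sh3bp5. That comparison used the same 8 exposed libraries of day 1, so their rise here is no independent support for it, and the values are given side by side. Dll4, a Notch ligand of capillary and arterial endothelium, stood at 131, 136, 124, 137, 119, 132, 98.7 and 122 CPM in libraries FSDE_257 to FSDE_264. At day 7 it stood at 142, 155, 171, 159, 148, 169, 154 and 143 CPM in libraries FSDE_273 to FSDE_280, all above every library of day 1. Dll4 rose by 0.31 ± 0.06 (edgeR adjusted p = 0.00848), and in air lungs its medians were 162 and 165 CPM. Slc29a1, a nucleoside transporter, rose by 0.15 ± 0.04 (edgeR adjusted p = 0.0425), from a median of 235.9 to 260.6 CPM, and fell by 0.16 ± 0.04 in air lungs (edgeR adjusted p = 0.0162), from 294.02 to 261.02 CPM. Its exposed call was lost with the close pairs summed (edgeR adjusted p = 0.101). Ehd4, an endosomal trafficking protein, rose by 0.11 ± 0.03 (edgeR adjusted p = 0.0217), from a median of 541 to 578 CPM, against 621 CPM on both days in air lungs; this call too was lost with the close pairs summed (edgeR adjusted p = 0.0534). Sh3bp5 had a change of 0.09 ± 0.04 and did not pass (edgeR adjusted p = 0.188).

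**Figure D4:**
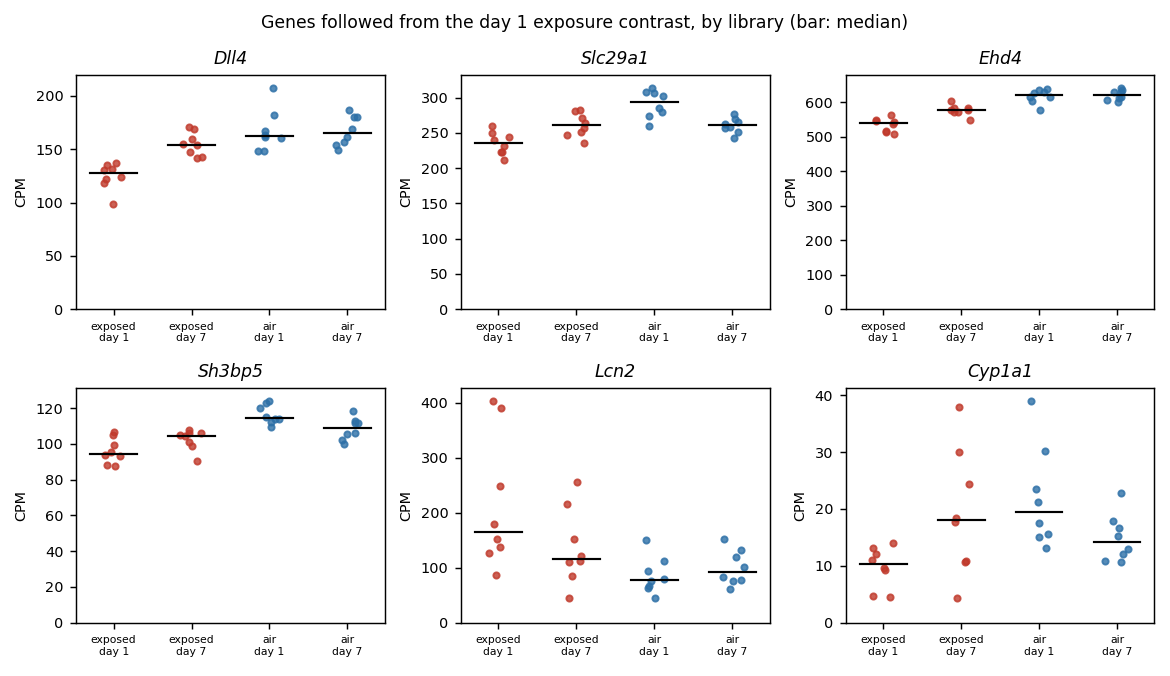
CPM, on axes from 0, of 6 genes in the 32 libraries of days 1 and 7, with a point for each library and a bar at each median of 8. For Dll4 the exposed libraries of day 7 lie above those of day 1, from 142 against at most 137 CPM, while Lcn2 and Cyp1a1 spread widely within each exposed group.

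Notch signalling passes between neighbouring cells and guides endothelial identity. In its list 3 of 14 tested genes rose (Dll4, Notch1 and Hes1), none fell, and the median was 0.15, where 2.09% of all genes were higher. In air lungs 2 other members rose and 1 fell, with a median of 0.09, where 7.3% of all genes were higher and 4.2% lower. The exposed count includes Dll4, which had been named earlier as lower in exposed than in air lungs at day 1. That comparison used the same exposed libraries of day 1, which favours a rise of Dll4 here. The receptor Notch1 rose by 0.26 ± 0.05 (edgeR adjusted p = 0.00789), from a median of 244 CPM (205 to 257.2) to 293.4 CPM (236 to 305), the lowest value of day 7 being library FSDE_277. Hes1, a transcriptional target of the pathway, rose by 0.27 ± 0.07 (edgeR adjusted p = 0.0313), a call lost with the close pairs summed (edgeR adjusted p = 0.0634). Neither gene passed in air lungs. Efnb2, an arterial ephrin ligand chosen after its values were seen as among the 10 genes with the smallest p, rose by 0.27 ± 0.05 (edgeR adjusted p = 0.00314), from a median of 428 to 524 CPM, with an air change of 0.03 ± 0.05.

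Of the 13 tested endothelial markers, 2 rose (Tek and Vwf) and 1 fell (Emcn), each in both arms. The shares over all genes were 2.09% higher and 2.09% lower in exposed lungs, and 7.3% higher and 4.2% lower in air lungs. Tek, the angiopoietin receptor, ranged from 525 to 606 CPM at day 1 (median 563) and from 629 to 736 CPM at day 7 (median 658), without overlap. It rose by 0.24 ± 0.04 in exposed (edgeR adjusted p = 0.00314) and by 0.24 ± 0.04 in air lungs (edgeR adjusted p = 0.00128). Emcn, a sialomucin of capillary and venous endothelium, fell by 0.33 ± 0.06 (edgeR adjusted p = 0.00314), from a median of 240 CPM (203 to 268.7) to 183 CPM (175 to 202), again without overlap. Its fall in air lungs was of 0.34 ± 0.06 (edgeR adjusted p = 0.00128). Vwf, the von Willebrand clotting factor, rose by 0.19 ± 0.04 (edgeR adjusted p = 0.00519) in exposed and 0.12 ± 0.04 (edgeR adjusted p = 0.0314) in air lungs. In whole lung RNA, fewer cells of a type and less RNA per cell cannot be told apart. The summed endothelial markers ran from 6933 to 8249 CPM at day 1 and from 7375 to 7754 CPM at day 7.

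All 11 alveolar type 2 markers had a value below 0 in exposed lungs, and 2 of them fell, where 2.09% of all genes were lower. Their median was -0.11 in exposed and 0.06 in air lungs. Napsa, a protease that processes surfactant proteins, fell by 0.28 ± 0.06 (edgeR adjusted p = 0.0105), from a median of 456 CPM (424 to 521) to 374 CPM (315 to 421), without overlap; its air change was -0.07 ± 0.06 (edgeR adjusted p = 0.517). Sftpc fell by 0.21 ± 0.06 just inside the threshold (edgeR adjusted p = 0.0498), and this call held in 9 of 32 fits that each left out a library and was lost with the close pairs summed (edgeR adjusted p = 0.0883). The summed level of the 11 markers was 19950 to 23395 CPM at day 1 and 17272 to 23150 CPM at day 7.

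Genes of respiratory chain and ATP synthase subunits, chosen by symbol pattern (which also caught Atp5sl, not a subunit), fell in 20 of 75 tested and rose in 0, with 69 below 0 and a median of -0.14, where 2.09% of all genes were lower. In air lungs 20 of 75 also fell, with 74 below 0 and a median of -0.14, where 4.2% of all genes were lower, and 10 of the genes were called in both arms. Among the called members the largest exposed fall was -0.31. Atp5o, a subunit of ATP synthase, fell by 0.24 ± 0.04 (edgeR adjusted p = 0.0050), from a median of 87.0 CPM (78.0 to 104) to 73.2 CPM (70.6 to 80.3). Cox7c, of cytochrome c oxidase, fell by 0.22 ± 0.05 (edgeR adjusted p = 0.00957), from 75.8 to 102 CPM down to 68.2 to 75.5 CPM, without overlap. Uqcrfs1, the Rieske protein of complex III, fell by 0.18 ± 0.04 (edgeR adjusted p = 0.0103). The list's count rested in part on day 1 library FSDE_264, the highest in Atp5o and Uqcrfs1: without it 7 genes were called. It was also 7 with the total count of each library as a covariate, and 11 with the close pairs summed.

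Of 75 tested cytosolic ribosomal protein genes, 6 fell in exposed lungs (Rpl18, Rpl35a, Rplp0, Rps10 and Rps2 among them), with a median of -0.10, and 34 fell in air lungs, with a median of -0.15. Of all genes tested, 2.09% were lower in exposed and 4.2% in air lungs. Both arms called 1 gene of the list. Rps2 fell by 0.24 ± 0.05 (edgeR adjusted p = 0.00665) and Rps10 by 0.34 ± 0.08 (edgeR adjusted p = 0.021, or 0.0539 with the close pairs summed); each name stands on 2 identifiers, and pseudogene copies make such counts uncertain. The exposed count fell to 1 without library FSDE_262 and with the close pairs summed, and was 16 without library FSDE_258.

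Among cell cycle genes, 4 of 38 tested fell (Mcm3, Mcm4, Mcm6 and Mcm7), where 2.09% of all genes were lower. All 4 encode subunits of the helicase that licenses replication origins, while Mcm2 and Mcm5 of the same family were tested and did not pass. Over the list 29 genes were below 0 and 9 above. The list median was -0.13, against 0.02 in air lungs, where none of the list passed and 11.5% of all genes did. Mcm3 ranged from 21.5 to 26.3 CPM at day 1 (median 23.4) and from 15.1 to 23.3 CPM at day 7 (median 18.2). It fell by 0.36 ± 0.06 (edgeR adjusted p = 0.00452), and its air change was -0.15 ± 0.06 (edgeR adjusted p = 0.119). Mcm4 fell by 0.25 ± 0.05 (edgeR adjusted p = 0.0102), with an air change of -0.02 ± 0.05, and Mcm6 fell by 0.27 ± 0.07 (edgeR adjusted p = 0.0228), a call lost with the close pairs summed (edgeR adjusted p = 0.0634). Without library FSDE_264, 2 cell cycle genes passed.

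Of 15 tested antioxidant genes under NRF2, 2 fell in exposed lungs, against 2.09% of all genes. Values below 0 were found for 13 of the 15 in exposed (median -0.09) and 11 in air lungs (median -0.03). Txn1, thioredoxin, fell by 0.23 ± 0.05 (edgeR adjusted p = 0.0184), from a median of 135 to 112 CPM, and Prdx1, a peroxiredoxin, by 0.16 ± 0.04 (edgeR adjusted p = 0.0194), from 240 to 212 CPM. None of the list passed in air lungs, and none in exposed lungs without library FSDE_264. The Prdx1 call was also lost with the close pairs summed (edgeR adjusted p = 0.0573).

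Among immune cell markers the calls were Lgals3, Gata2 and Fscn1, in lists read against 4.18% called over all genes. None of the tested neutrophil (11), T cell (16), NK and cytotoxic (11), monocyte and interstitial macrophage (11) or alveolar macrophage (10) genes passed in exposed lungs. Summed neutrophil markers ran from 208 to 411 CPM at day 1 and from 152 to 493 CPM at day 7, so the groups overlapped. In the list of macrophage lysosome and lipid genes 12 of 14 were below 0, with a median of -0.14, and Lgals3, which encodes galectin-3, fell by 0.35 ± 0.10 (edgeR adjusted p = 0.0415), a call lost with the close pairs summed (edgeR adjusted p = 0.106). Gata2, a transcription factor of mast cells and endothelium, rose by 0.34 ± 0.07 (edgeR adjusted p = 0.00519), from a median of 107 CPM (102 to 121) to 139 CPM (121 to 152), with an air change of 0.03 ± 0.07; the other 8 mast and basophil genes did not pass. Fscn1, the actin bundler of mature dendritic cells, fell by 0.38 ± 0.10 (edgeR adjusted p = 0.0252) and by 0.33 ± 0.10 in air lungs (edgeR adjusted p = 0.0239).

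In the stromal and stress lists, Pdgfra, the receptor of lung fibroblasts for platelet-derived growth factor, rose by 0.27 ± 0.06 in exposed (edgeR adjusted p = 0.0188, or 0.0607 with the close pairs summed) and by 0.27 ± 0.06 in air lungs (edgeR adjusted p = 0.00756). Klf6, an early response factor, rose by 0.31 ± 0.08 (edgeR adjusted p = 0.0304, or 0.0973 with the close pairs summed) and was the only one of 22 immediate early genes to pass in exposed lungs, whereas 7 rose in air lungs. The median of that list was 0.19 in each arm. For comparison, 4.18% of all genes tested were called in exposed lungs, and 7.3% were higher in air lungs. None of 30 collagen and matrix genes, 25 interferon-stimulated genes, 28 cholesterol and fatty acid synthesis genes, 20 ER chaperone genes or 19 heat shock genes passed in exposed lungs. Interferon-stimulated genes had a median of 0.08 in exposed lungs (-0.02 with the close pairs summed) and -0.21 in air lungs, and 6 ER chaperone genes rose in air lungs.

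Markers of tissues that a lung piece can carry along differed widely between libraries. Cardiac and pulmonary vein muscle genes had a median of -1.001, with all 9 tested below 0 and none called, and their summed level ran from 44.3 to 434 CPM at day 1 (median 221) and from 42.9 to 424 CPM at day 7 (median 84.8). Mesothelial genes were above 0 in 5 of 5 (median 0.71), none called. These are the exposed values. In air lungs 8 of 9 cardiac genes were below 0 (median -0.33) and 5 of 5 mesothelial genes above 0 (median 0.27), none called. The part of such RNA in the gene changes was not tested. Skeletal muscle genes stayed low in the exposed libraries, at a summed 5.23 to 13.9 CPM, and reached 608 CPM in the highest air library of day 7, where 2 of 4 passed.

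**Figure D5:**
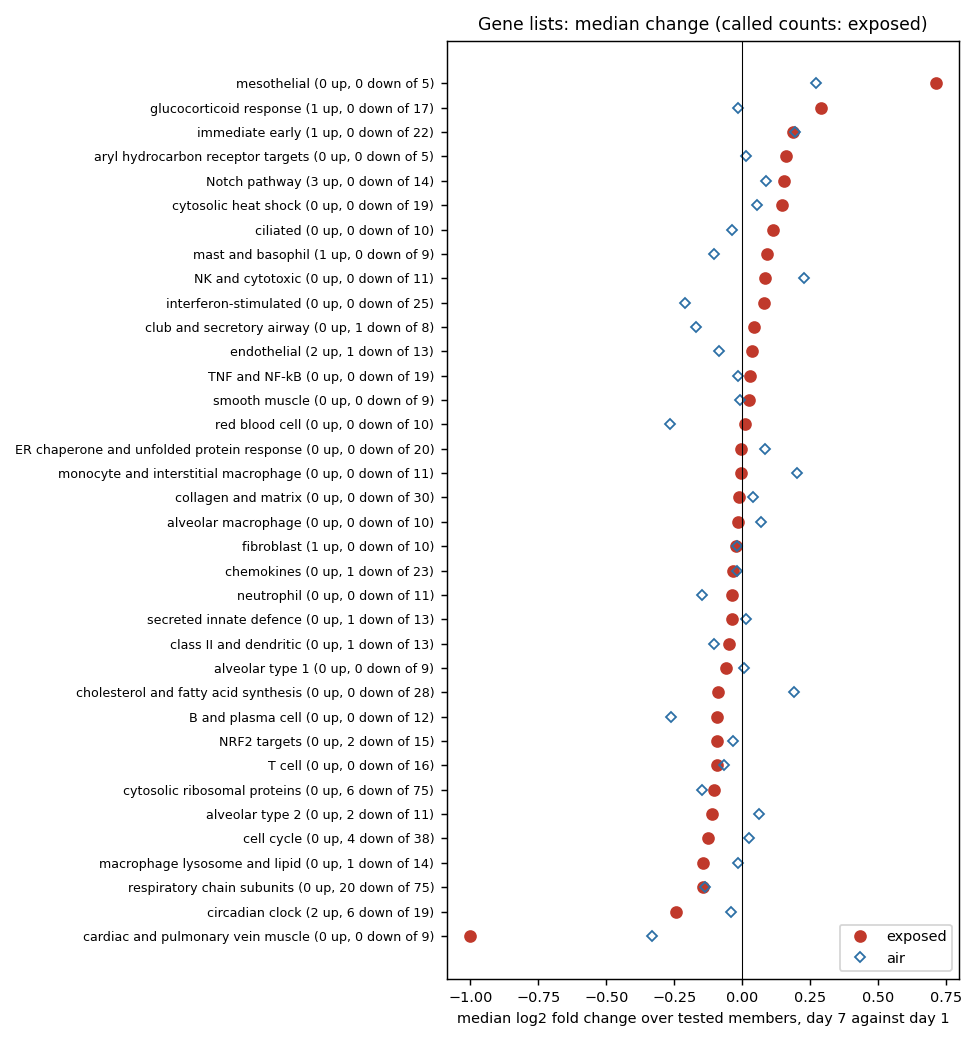
Median log2 fold change over the tested members of 36 gene lists with at least 5 tested genes, for exposed (filled) and air (open) lungs, with the number called up and down in exposed lungs in each label. Most medians lie within a small distance of 0, the respiratory chain list lies at -0.14 in both arms, and the cardiac list at -1.001 held no called gene.

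Among genes ranked by the difference between the exposed and the air change, none passed. Slc29a1 had the smallest p, with a difference of 0.31 ± 0.06 (unadjusted p = 1.57e-05, edgeR adjusted p = 0.231). Slc29a1 had been named earlier as lower in exposed than in air lungs at day 1. That gap enters this difference, so the rank is no independent support. Tmem100, an endothelial membrane protein, rose in exposed lungs by 0.20 ± 0.05 (edgeR adjusted p = 0.0304), a call lost with the close pairs summed (edgeR adjusted p = 0.0607), and had an air change of -0.13 ± 0.05, a difference of 0.33 ± 0.08 (edgeR adjusted p = 0.241). Appl2 (0.54 ± 0.12), Ccnl1 (0.25 ± 0.06) and Btbd1 (0.17 ± 0.04) followed with the same adjusted p. On the lower side, Lrp2, the endocytic receptor megalin, rose in air lungs by 0.34 ± 0.06 (edgeR adjusted p = 0.00224) and had an exposed change of -0.09 ± 0.06, a difference of -0.42 ± 0.09 (edgeR adjusted p = 0.241). Aco1, the cytosolic aconitase that also acts as an iron regulatory protein, fell by 0.21 ± 0.04 in exposed lungs (edgeR adjusted p = 0.0041), from a median of 76.3 CPM (69.8 to 82.2) to 66.4 CPM (62.4 to 67.8) without overlap, and its air change was 0.03 ± 0.04. P2rx4 (-0.43 ± 0.10), Gmpr2 (-0.28 ± 0.07) and Tmem45al (-0.31 ± 0.08) had edgeR adjusted p of 0.246 to 0.311 for the difference. Of these, Gmpr2 and Tmem45al fell in exposed lungs, by 0.27 ± 0.05 (edgeR adjusted p = 0.0050) and 0.28 ± 0.06 (edgeR adjusted p = 0.00789).

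A few called genes outside these lists were chosen after their values were seen, as holding the smallest p in exposed lungs. Sulf1, an extracellular sulfatase that edits heparan sulfate, had the smallest, rising by 0.44 ± 0.06 (edgeR adjusted p = 0.000151) from a median of 82.0 CPM (74.1 to 96.9) to 118 CPM (98.2 to 122), without overlap. It also rose in air lungs, by 0.21 ± 0.06 (edgeR adjusted p = 0.0199). Apcdd1, a Wnt inhibitor, fell by 0.37 ± 0.06, and Kifc3, a kinesin, by 0.41 ± 0.07, with air changes of -0.18 ± 0.06 and -0.13 ± 0.07 that did not pass. Acbd5, a peroxisomal protein, rose by 0.22 ± 0.04 and Syne2, a nuclear envelope protein, by 0.33 ± 0.06, and both also rose in air lungs, by 0.12 ± 0.04 and 0.39 ± 0.06.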

How the data were processed

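Messenger RNA from a piece of lung was sequenced with a stranded kit, per the labels' protocols. The authors deposited expected counts per gene, estimated counts judging from the values that are not whole, in 1 table of 32285 identifiers for each day. Salmon 1.10.1, STAR 2.6.1d, Trim Galore 0.6.7, cutadapt 3.4 and bcl2fastq 2.19 are the tools, and Rnor_6.0 the build, per the submitters' processing notes; the settings are not given in the sources used here. Of the values, 5.58% were not whole (tolerance 1e-06), and all were rounded. A gene name is shared with another identifier by 4671 identifiers.

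The 32 libraries of days 1 and 7 (10226230 to 14400337 counts) were joined by gene identifier and fitted in a common model of 4 groups with edgeR 4.0.16 (R 4.3.3): TMM scaling, filterByExpr (14687 genes left), robust quasi-likelihood F test, Benjamini-Hochberg adjustment over all genes, threshold 0.05. The contrasts were exposed day 7 minus day 1, the same in air, and their difference. The SE is the log2 fold change divided by the square root of F. CPM printed are on TMM-scaled totals over all 48 libraries. The p-values measure the spread between these libraries, 1 per rat by the labels. Genes were named by a rule: the 12 largest called rises and falls (not provisional symbols, mean 1 CPM or more, 7 or more of the 8 day 7 libraries beyond the day 1 mean), up to 3 called members per list, the 5 smallest p per direction of the difference, 10 particle response markers and 4 genes of an earlier analysis. The other clock genes and those of the 10 smallest p in exposed lungs that the rule had not named were added after their values were seen. The 38 lists (726 genes, 708 with a row) and the members were chosen with earlier results of these data known; lists were described by counts and medians, without a test. Alternatives were RLE scaling, other filters, DESeq2 1.42.0, limma-voom (limma 3.58.1), fits of the exposed arm or of all 48 libraries, summed close pairs, the log2 total count or a surrogate variable (sva 3.50.0) as covariate, and leaving out each library. The code was tested on simulated data. Results for some genes are not reported here.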

Additional observations from a re-analysis of the deposited data

Results flagged for a closer look

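Within the exposed groups, the level of each named gene and the library totals were examined for a library far from the other 7 (Dixon's ratio of the gap to the range, at its 95% critical value), in 182 groups of 8. This test marks about 1 in 20 groups by chance, and 19 were marked, 7 at day 1 and 12 at day 7.

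At day 1, library FSDE_264 was the highest in Atp5o (104 CPM, the next at 90.0), Uqcrfs1 (91.7 CPM, the next at 83.1) and Napsa (521 CPM, the next at 466), and the lowest in Lrp2 (96.9 CPM, the next at 118). Library FSDE_260 was the highest in Adamts4 (2.40 CPM) and Ccl2 (3.94 CPM), and library FSDE_263 the lowest in Dll4 (98.7 CPM, the next at 119).

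At day 7, library FSDE_280 was the highest in Dbp (17.3 CPM, the next at 8.44), Tef (145 CPM) and Sema3d (59.9 CPM). Library FSDE_277 was the lowest in Notch1 (236 CPM, the next at 285.3), Efnb2 (447 CPM, the next at 506) and Btbd1 (160 CPM). Library FSDE_273 was the highest in Fam124b (21.3 CPM) and P2rx4 (54.0 CPM) and the lowest in Tmem45al (21.1 CPM). Library FSDE_276 was the highest in Tek (736 CPM) and Bhlhe40 (39.96 CPM), and library FSDE_274 the lowest in Col1a1 (697 CPM, the next at 868).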

How the results depend on the processing

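Of the genes tested, 4.18% were called in exposed lungs (614, 307 in each direction), and this share moved with the setting. It was 1.84% with no filter on low counts (202 higher, 186 lower), 7.00% with DESeq2 (592 higher, 436 lower), 2.14% with all 48 libraries in the fit (146 higher, 172 lower), 1.71% with the 2 closest exposed pairs summed (126 each way), 1.49% with 3 pairs summed (107 higher, 112 lower), 1.49% with the log2 total count as covariate (110 higher, 109 lower) and 8.99% with a surrogate variable (704 higher, 617 lower). DESeq2 gave no adjusted p for 2848 genes, Trpa1, Ccno and Ighg among them. Leaving out each library gave 1.248% to 6.85% (94 to 562 higher, 90 to 448 lower): 184 calls without FSDE_264 and 225 without FSDE_262 of day 1, and 241 without FSDE_276, 306 without FSDE_273, 361 without FSDE_275, 382 without FSDE_279 and 1010 without FSDE_277 of day 7. In air lungs 3 summed pairs left 406 genes lower. Leaving out a library there gave 6.40% (943 calls, without AIR_252 of day 1) to 15.5% (2286, without AIR_272 of day 7), 646 to 1342 higher and 297 to 944 lower, with 1027 calls without AIR_251. The difference between the arms gave 0.0953% with DESeq2 (11 higher, 3 lower) and, without a library, 0% to 0.0407%: 6 genes without FSDE_259 (5 higher, 1 lower), 1 lower without FSDE_264 and 0 without each other library. The cause of these shifts was not tested.

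Of the 64 named genes called in exposed lungs, 39 passed with 3 pairs summed, 34 in every fit without a library, and 28 in every setting that gave them a value. Without FSDE_264, 25 lost the call, without FSDE_262, 24, and without FSDE_276, 20. No called gene changed sign in these settings. Among the uncalled genes reported here the sign turned for Cxcl1 (0.0117 by limma-voom, 0.0427 with 2 and with 3 pairs summed, -0.168 to 0.0489 without a library), Spp1 (-0.275 to 0.0397) and Bhlhe40 (-0.0999 to 0.0186). No paired analysis was possible because animal numbers are not shared between groups. Counting noise limits genes of a few CPM, such as Trpa1, Bpifa1 and Ccno.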
